A study of Rattus norvegicus with 8 samples.

Results

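The adrenergic receptors are the 7 genes Adra1a, Adra1b, Adra1d, Adra2a, Adra2b, Adra2c and Adrb1, selected by gene name among the 35561 gene names on a rat oligonucleotide array. They were measured by 9 of the 41012 probes outside controls. Adra1b had 3 probes and every other receptor 1. Total RNA came from the medial thalamus of 8 male Sprague-Dawley rats under urethane, each of which carried a tracheal cuff that could be inflated. In the 4 occlusion rats the cuff closed the airway for 2 to 4 breaths, opened for at least 15 breaths, and this was repeated for 10 min before the brain was taken at once. In the 4 surgical controls the cuff stayed deflated and the brain was taken 70 min after the surgery. The sources used here do not give the interval between surgery and brain removal for the occlusion rats, so treatment and time under anaesthesia cannot be told apart. Each rat was hybridised in Cy5 against a Cy3 pool of all 8 rats on 1 array, and values are log2 ratios of rat over pool unless stated otherwise, so a value of 0 is the level of the pool.

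Adrenergic receptors are G protein-coupled receptors for noradrenaline and adrenaline. The alpha-1 receptors (Adra1a, Adra1b, Adra1d) couple mainly to Gq and phospholipase C, the alpha-2 receptors (Adra2a, Adra2b, Adra2c) to Gi and lower cyclic AMP, and the beta receptor Adrb1 to Gs and raises it. The thalamus receives noradrenaline from axons of the locus coeruleus, whose cell bodies lie in the brainstem, and noradrenaline acting on alpha-1 receptors is known to depolarise thalamic relay neurons.

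The probes lie at these positions in the rn3 build that the file headers name, and the files do not say which exon or UTR a position belongs to. The Adra1a probe lies on chromosome 15 at 46278703 to 46278762, plus strand. The Adra1b probes lie on the minus strand of chromosome 10 and are numbered along the direction of transcription. Probe 1 covers 28946930 to 28946990, probe 2 covers 28891147 to 28891206 and probe 3 covers 28890338 to 28890397, so probe 2 starts 55784 bases beyond probe 1 and probe 3 starts 809 bases beyond probe 2. The Adra1d probe lies on chromosome 3 at 119185632 to 119185691, minus strand, and the Adra2b probe on the same chromosome at 114774221 to 114774280, plus strand. The Adra2c probe lies on chromosome 14 at 81110408 to 81110467, minus strand, and the Adrb1 probe on chromosome 1 at 263237731 to 263237790, plus strand. The Adra2a probe carried no position.

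The upstream sequences of Adra1b, Adra1d and Adra2c are shown because these receptors varied most between rats, a choice made after their values were seen. Each is the 250 bases before the gene start in RefSeq's annotation of the GRCr8 build, which differs from the build of the probe positions, and is written 5′ to 3′ on the gene's strand. The stretches are chr10:28814348-28814597, chr3:139262332-139262581 and chr14:79697477-79697726, all on the minus strand. Capitals mark the GC box, a motif bound by Sp family factors, searched as GGGCGG on both strands.
Adra1b: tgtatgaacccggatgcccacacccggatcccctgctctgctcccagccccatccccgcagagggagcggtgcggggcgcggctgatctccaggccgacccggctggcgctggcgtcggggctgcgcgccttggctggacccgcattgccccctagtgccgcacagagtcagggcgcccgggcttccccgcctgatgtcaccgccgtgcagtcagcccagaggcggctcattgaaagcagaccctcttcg
Adra1d: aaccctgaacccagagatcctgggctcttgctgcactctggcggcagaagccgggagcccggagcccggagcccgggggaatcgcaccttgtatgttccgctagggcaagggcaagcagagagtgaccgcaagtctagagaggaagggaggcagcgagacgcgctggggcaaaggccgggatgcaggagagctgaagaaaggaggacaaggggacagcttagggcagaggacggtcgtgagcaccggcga
Adra2c: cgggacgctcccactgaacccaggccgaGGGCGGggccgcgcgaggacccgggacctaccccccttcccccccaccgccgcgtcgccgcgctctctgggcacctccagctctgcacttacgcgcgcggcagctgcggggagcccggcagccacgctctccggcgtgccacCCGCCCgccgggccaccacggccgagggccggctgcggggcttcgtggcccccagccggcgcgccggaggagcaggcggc
Promoters of 6 of the 7 receptors were matched by symbol. Adra2b and Adra2c each held 2 matches to the GC box, and the other matched receptors held 0, where 30.5% of 33469 rat promoters of the same length held at least 1. None of the 6 held TATAAA, which 12.9% of promoters held, and only Adrb1 held the cyclic AMP response element half-site TGACG, with 1 match, where 18.2% of promoters held it. Their GC content ran from 64% for Adra1d to 80.4% for Adra2c, above the median of 51.2% over all promoters. A match describes letters in this window and is not evidence of binding.

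Of the 9 receptor probes, 8 probes of 6 genes were well above background in Cy5 on all 8 arrays and were tested. Adra1a was well above background in 1 rat, control 3, where its Cy5 signal was 1.97 times the local background, and lay between 1.09 and 1.40 times background in the other 7 rats. Its log2 ratios were -0.10, -0.08, -0.34 and -0.18 in occlusion rats 1 to 4 and -0.04, -0.14, -0.03 and 0.03 in control rats 1 to 4, which are ratios of signals near background and were not tested. Its Cy5 signal was 108 in control 3, between 73.2 and 76.8 in the other controls and between 68.6 and 79.3 in the occlusion rats, so no fold between the groups is given. For the tested probes the lowest signal over background in any rat was 3.46, for Adra2a.

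**Figure D1:**
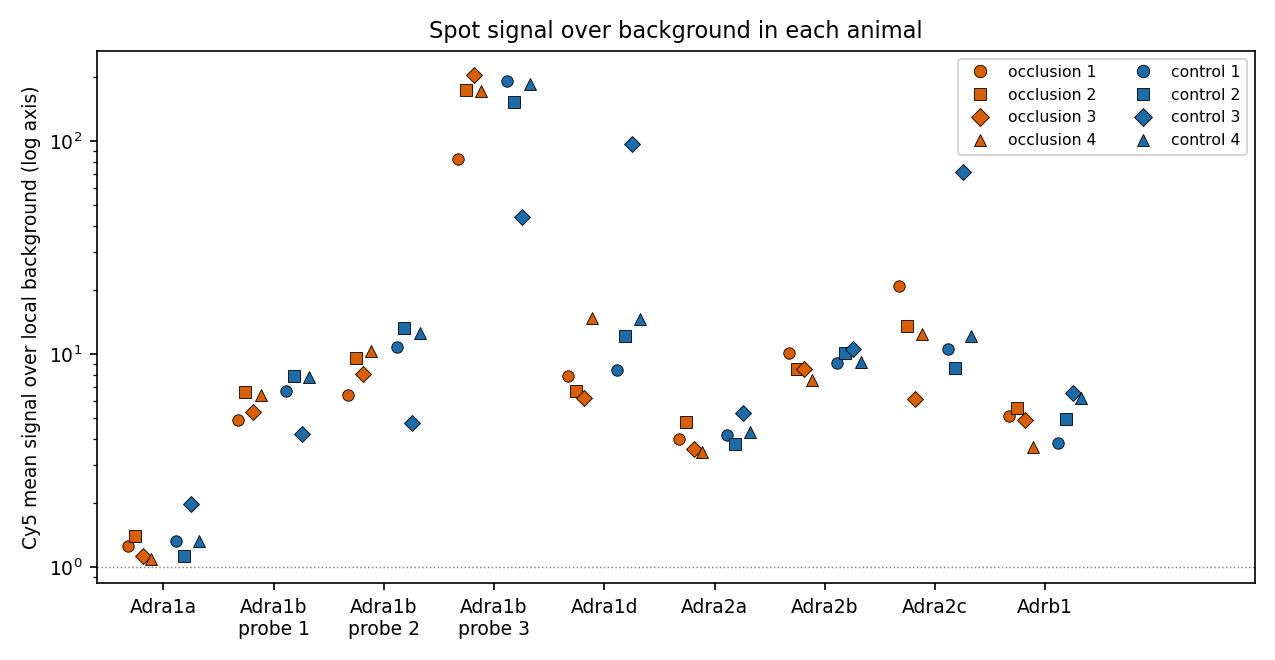
Cy5 mean signal divided by the median local background (log axis) for each receptor probe, 1 point per rat, orange for occlusion and blue for control, with the rat's number given by the symbol. Adra1a sits between 1.09 and 1.97 in all rats, and control 3 stands at 97 for Adra1d and 71.7 for Adra2c. Heights of different probes are not comparable.

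Tracheal occlusion was compared with surgical control to ask whether any receptor transcript differed in the medial thalamus. No receptor probe passed the test (limma, Benjamini-Hochberg adjustment over all 31690 tested probes, adjusted p under 0.05), and neither did any other probe, so 0 of 8 receptor probes stands beside 0% of all probes. The smallest adjusted p was 0.975. No receptor probe had an unadjusted p under 0.05, against 984 of all tested probes (3.11%, of which 1.72% higher and 1.38% lower under occlusion). The groups overlapped on all 8 receptor probes, while they were apart on 792 of all tested probes (2.5%). Occlusion was lower on 5 receptor probes and higher on 3, and 49.5% of all tested probes were lower. The median difference was -0.05 over the receptor probes and 0 over all tested probes, and the median absolute difference was 0.13 against 0.08. The receptor probes also had the wider errors, with a median standard error of 0.26 against 0.11.

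**Figure D2:**
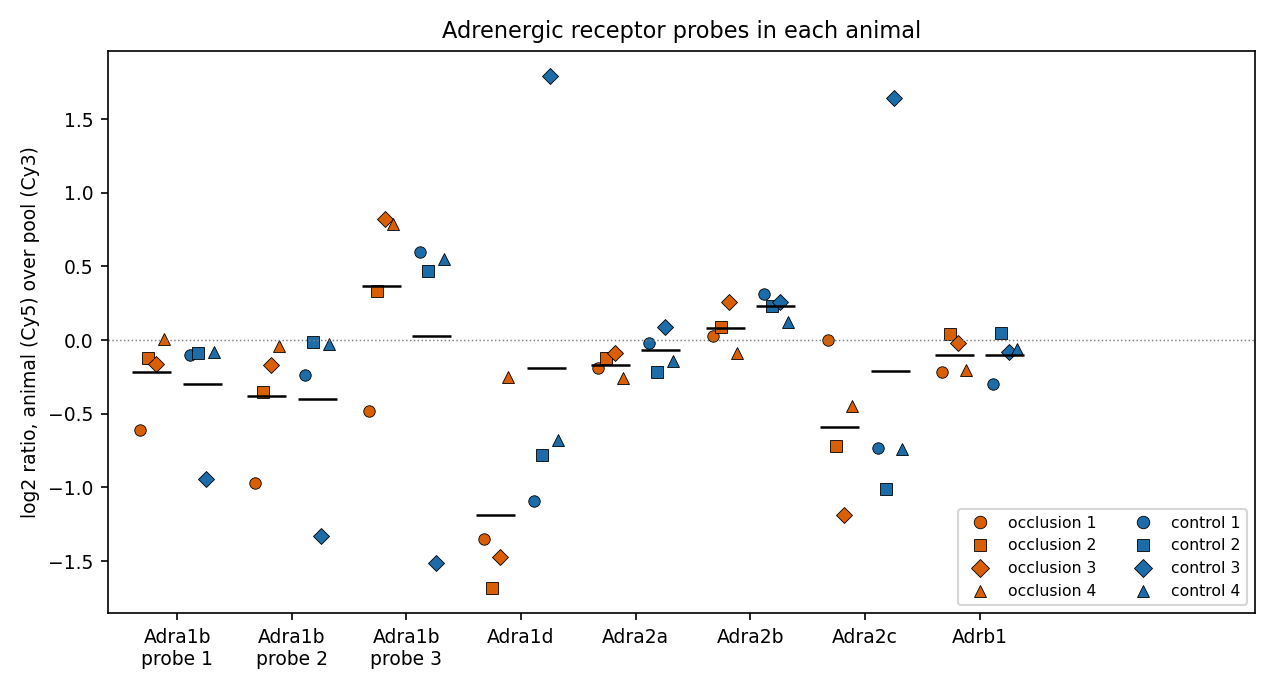
Log2 ratio of rat (Cy5) over pool (Cy3) for the 8 tested receptor probes, 1 point per rat, with the group mean as a black line (n = 4 per group). The blue diamond, control 3, is lowest on the Adra1b probes and highest on Adra1d and Adra2c, while all rats lie between -0.30 and 0.31 on Adra2a, Adra2b and Adrb1.

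Among the alpha-1 receptors, Adra1d had the largest group difference. Its log2 ratios were -1.35, -1.68, -1.47 and -0.25 in occlusion rats 1 to 4 and -1.09, -0.78, 1.79 and -0.68 in control rats 1 to 4. Occlusion 1, 2 and 3 lay below every control and occlusion 4 lay above 3 of the 4 controls, so the groups overlapped. With the background correction fitted on all spots, as was first done, occlusion 3 read -0.65, above controls 1, 2 and 4. There the difference was -0.74 ± 0.61 (SE). With the present correction the means were -1.19 ± 0.64 (SD, n = 4) under occlusion and -0.19 ± 1.33 in controls. The difference was -0.99 ± 0.60 (SE). This did not pass the test (limma adjusted p = 0.975, unadjusted p = 0.133; exact two-sided permutation p = 0.229, where the smallest possible is 0.029). The 95% interval of the ratio of occlusion to control ran from 0.20 to 1.29. Without control 3 the difference was -0.33 ± 0.30. Each slide held 2 rats per group. Within slide 1, which held control 3, the difference was -2.07 ± 0.83, and within slide 2 it was 0.08 ± 0.39 (SE).

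The 3 Adra1b probes moved together from rat to rat. Probe 3, the farthest along the direction of transcription and the probe with the widest spread of the 3, read -0.48, 0.33, 0.82 and 0.79 in occlusion rats 1 to 4 and 0.60, 0.47, -1.51 and 0.55 in control rats 1 to 4. Control 3 was the lowest rat and occlusion 1 the next lowest, and the other 6 lay between 0.33 and 0.82. Probe 2 read -0.97, -0.35, -0.17 and -0.04 against -0.24, -0.01, -1.33 and -0.03. Probe 1 read -0.61, -0.12, -0.16 and 0.01 against -0.10, -0.09, -0.94 and -0.08. Control 3 and occlusion 1 were the lowest rats on each. Pearson's r over the 8 rats was 0.98 between probes 1 and 2 and 0.96 between probes 2 and 3, and 0.95 and 0.91 without control 3, given as a description of probes of 1 transcript read on the same arrays.

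The group differences of Adra1b were 0.08 ± 0.21 for probe 1, 0.02 ± 0.31 for probe 2 and 0.34 ± 0.49 (SE) for probe 3. None passed the test, with limma adjusted p of 0.984, 0.997 and 0.975. For probe 3 the 95% interval of the ratio of occlusion to control was 0.59 to 2.72, which leaves room for a change in either direction. Without control 3 all 3 differences turned negative, at -0.13, -0.29 and -0.17.

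Among the alpha-2 receptors, Adra2a, a main autoreceptor of noradrenergic neurons that is also found on other neurons, stayed close to the pool. It read -0.19, -0.12, -0.09 and -0.26 in occlusion rats 1 to 4 and -0.02, -0.22, 0.09 and -0.14 in control rats 1 to 4, with the groups interleaved. The difference was -0.10 ± 0.09 (SE, limma adjusted p = 0.975), and the 95% interval of the ratio was 0.82 to 1.07.

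Adra2b, the alpha-2 subtype known for its expression in the thalamus, read 0.03, 0.09, 0.26 and -0.09 in occlusion rats 1 to 4 and 0.31, 0.23, 0.26 and 0.12 in control rats 1 to 4. Occlusion 1, 2 and 4 lay below every control, and occlusion 3 lay among the controls. The difference was -0.16 ± 0.09 (SE; limma unadjusted p = 0.121, adjusted p = 0.975; exact two-sided permutation p = 0.143), and the 95% interval of the ratio was 0.78 to 1.04. This value depends on which spots set the background correction. With the correction fitted on all spots, as was first done, the difference was -0.19 ± 0.07, the groups did not overlap, the limma unadjusted p was 0.0254 and the exact two-sided permutation p was 0.0286. The limma adjusted p was then 0.977, so the probe did not pass the test in either case. In that fit it was the 1 receptor probe of 8 that was apart, beside 2.56% of all tested probes. In occlusion 3 and, less so, in occlusion 1, the background fitted on all spots lay below that fitted without flagged spots. The correction was changed after the receptor values had been seen. Without occlusion 3 the present correction gave -0.22 ± 0.08 (limma unadjusted p = 0.032, adjusted p = 0.999).

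Adra2c, which like Adra2a inhibits noradrenaline release, read 0.00, -0.72, -1.19 and -0.45 in occlusion rats 1 to 4 and -0.73, -1.01, 1.64 and -0.74 in control rats 1 to 4. Control 3 was the highest rat, and occlusion 1 read at the level of the pool. The other 3 controls lay within the range of the occlusion rats. With the background correction fitted on all spots, occlusion 3 read -0.51 and those 3 controls lay below every occlusion rat. There the difference was -0.20 ± 0.53 (SE). With the present correction it was -0.38 ± 0.55 (SE, limma adjusted p = 0.975), with a 95% interval of the ratio from 0.33 to 1.81. Without control 3 it was 0.24 ± 0.24, with the opposite sign.

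Adrb1, the beta-1 receptor, showed the smallest difference. It read -0.22, 0.04, -0.02 and -0.20 in occlusion rats 1 to 4 and -0.30, 0.05, -0.08 and -0.06 in control rats 1 to 4, and both groups spanned about the same range. The difference was 0.00 ± 0.10 (SE, limma adjusted p = 0.998), and the 95% interval of the ratio was 0.85 to 1.17.

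**Figure D3:**
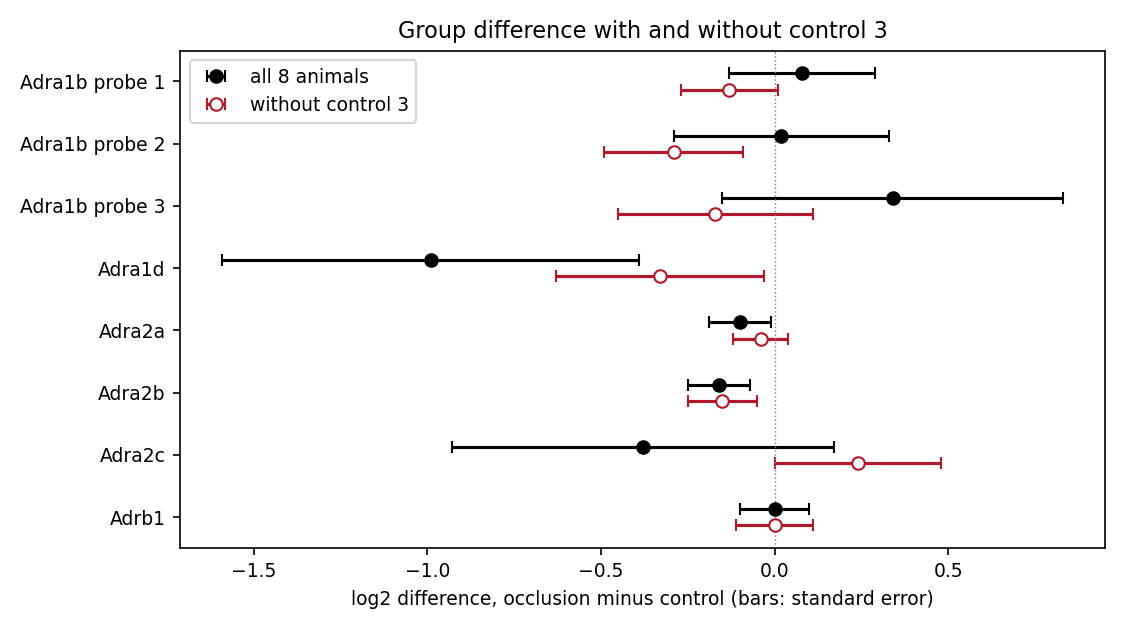
Log2 difference between groups, occlusion minus control, with its standard error, for each tested receptor probe over all 8 rats (filled black) and without control 3 (open red). The Adra1b probes and Adra2c change sign, Adra1d moves from -0.99 to -0.33, and Adra2a, Adra2b and Adrb1 move by at most 0.06.

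The receptors differed in how far they spread between rats. For these spreads Cy5 and Cy3 were read separately, after a further quantile normalisation of average log intensity between arrays (Aquantile). The SD of log2 Cy5 over the 8 rats was 1.23 for Adra1d, 0.97 for Adra2c and 0.88 for Adra1b probe 3, while the SD of the pool measured 8 times in Cy3 on the same spots was 0.14, 0.08 and 0.08. For Adra2a, Adra2b and Adrb1 the SD over rats was 0.12, 0.15 and 0.19 against 0.08, 0.11 and 0.11 in the pool. Over all tested probes the medians were 0.17 and 0.09. These spreads rest in part on control 3. Without it the SD over rats was 0.56 for Adra1d, 0.40 for Adra2c and 0.50 for Adra1b probe 3, against 0.10, 0.04 and 0.07 in the pool, and 0.08, 0.16 and 0.20 for Adra2a, Adra2b and Adrb1 against 0.09, 0.11 and 0.11. The spread over rats holds biological and technical variation together, and the spread of the pool holds technical variation only. In tissue RNA, fewer cells of a type and less RNA per cell cannot be told apart.

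Control 3 accounted for the widest departures. Against the median of the other 7 rats it was 7.34-fold higher on Adra1d and 5.19-fold higher on Adra2c, and 1.79-fold, 2.24-fold and 4.19-fold lower on Adra1b probes 1, 2 and 3. The scanner's log2 ratios of control 3 on these 3 probes were -1.48, -1.70 and -1.56, against -0.94, -1.33 and -1.51 here. The sizes on probes 1 and 2 thus depend on the processing. Control 3 lay outside the range of the other 7 rats on 6 of 8 receptor probes and on 45.4% of the 30107 tested probes measured on all arrays. It lay outside by at least 1 log2 unit on 3 of 8 receptor probes and on 2.22% of those probes. This tally was chosen after the values were seen.

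Marker genes of thalamic and neighbouring cells moved in the same rat. The labelled tissue was checked on 9 relay neuron genes, of which 7 were tested, and all 7 were well above background on 8 arrays. Their mean was -2.02 in control 3, while the other rats lay between -0.33 and 0.19. Slc17a6, the vesicular glutamate transporter of relay neurons, read -2.99 in control 3 and between -0.02 and 0.25 elsewhere, and Prkcd, a protein kinase C isoform strong in thalamus, read -3.01. The mean of the 3 tested genes of 10 listed for cortex, the other 7 having no probe matched by gene name, was 1.83 in control 3, while the other rats lay between -1.24 and -0.88, with Neurod2, a transcription factor of cortical projection neurons, at 2.60 and Nrgn, a postsynaptic calmodulin-binding protein, at 1.66. The 7 listed genes of meninges and fibroblasts averaged 0.99 in control 3 and between -0.65 and 0.14 elsewhere. The inhibitory neuron mean was highest in control 3, at 1.27, and the habenula mean lowest, at -1.61. The part of these cells in the receptor values was not tested.

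Occlusion 1, the next lowest rat on Adra1b, had the next lowest relay neuron mean, -0.33, with Prkcd at -0.97 but Slc17a6 at -0.02. Occlusion 4, the highest occlusion rat on Adra1d, had the highest mean of the 6 tested hypothalamic genes, 1.21. Occlusion 3 was the lowest rat on Adra2c with the present background correction, though not with the correction fitted on all spots. It had the highest choroid plexus mean, 1.63, and the lowest mean of the inhibitory neuron genes, -1.75. Other lists departed in these rats too, with an inhibitory neuron mean of 0.83 in occlusion 1 and a habenula mean of -1.02 in occlusion 4. No pairing of a receptor with a list was tested. The astrocyte mean lay between -0.20 and 0.07 in all 8 rats.

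**Figure D4:**
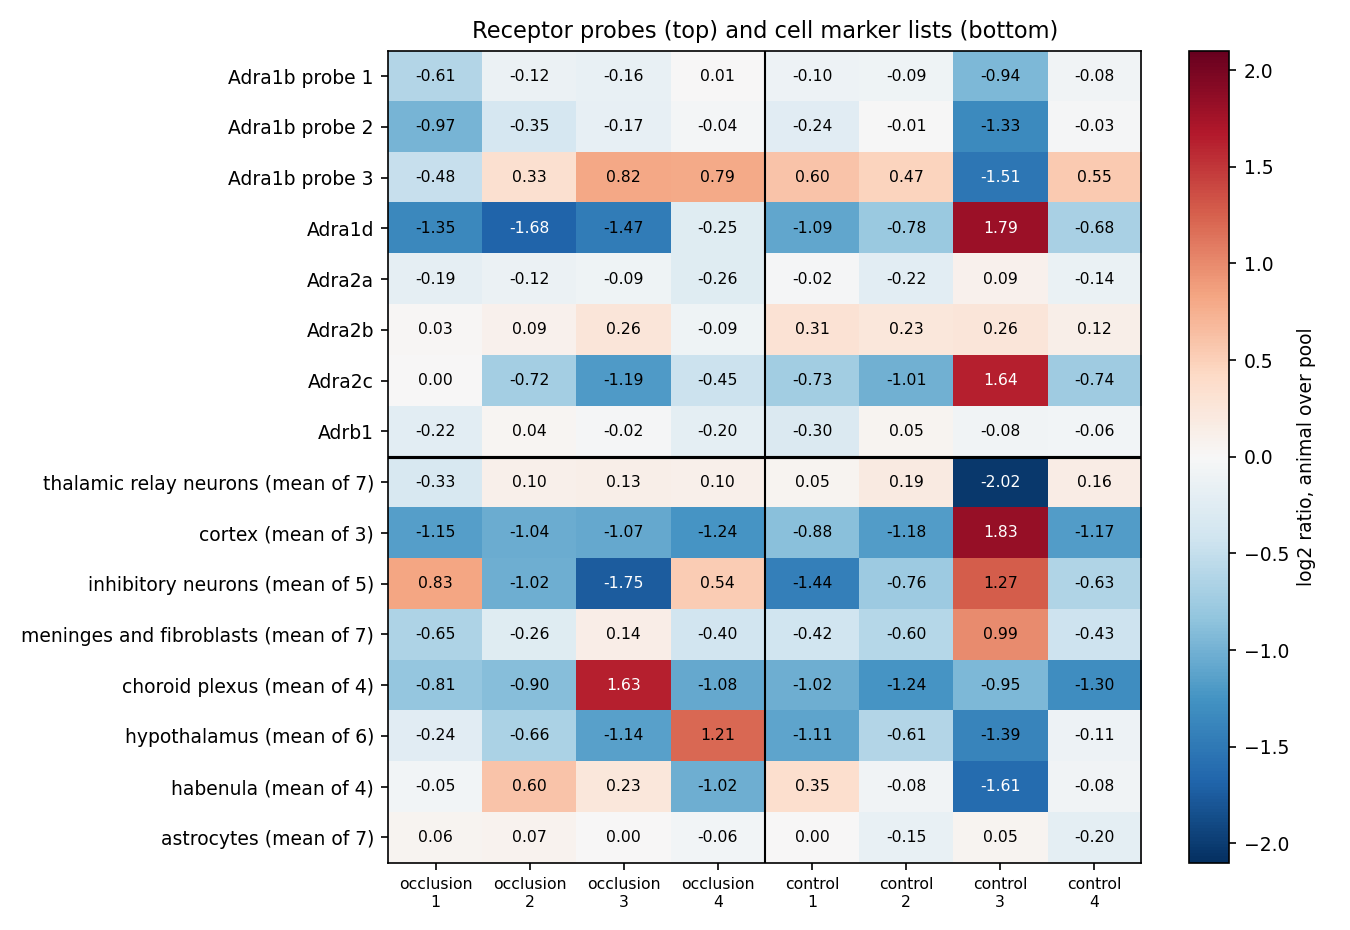
Log2 ratio of rat over pool for each tested receptor probe (top) and the mean over the tested genes of 8 marker lists (bottom), 1 column per rat, red above and blue below the pool. Control 3 is the column in which Adra1b (-1.51 on probe 3) and the relay neuron mean (-2.02) are low and Adra1d (1.79), Adra2c (1.64) and the cortex mean (1.83) are high.

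Across the 8 rats, the receptors fell into different patterns, given here as descriptions of arrays that share 1 pool. On the brightest probe of each receptor, Pearson's r was 0.85 between Adra1d and Adra2c, and 0.09 without control 3, so that likeness rested on 1 rat. Adra1b and Adra2c ran opposite to each other with r = -0.94, and -0.74 without control 3. Adra2a and Adra2b had r = 0.71, and 0.76 without control 3. Without that rat the SD of Adra2a was 0.08 over rats and 0.09 in the pool, so its spread did not exceed the technical spread. Adrb1 and Adra2c had r = -0.19 over the 8 rats and -0.60 without control 3. Control 3 also set the value for Adra1b with Adra1d, which was -0.70 with it and 0.38 without it, and for Adra2b with Adra2c, which was 0.04 with it and -0.69 without it.

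Among 15239 tested probes with a symbol, those most like each receptor over the 8 rats were as follows. Adra1b probe 3 was closest to Ptpn3, Sema4g and Rheb, with r of 0.995, 0.993 and 0.991. Adra1d was closest to Vipr1, Cd248 and Dbn1 at 0.990, 0.988 and 0.987, and Adra2c to Kcng1, Zfpm2 and Hs3st2 at 0.993, 0.987 and 0.987. Without control 3 these values lay between 0.916 and 0.981. Adra2a was closest to Ccdc52 (0.979), Adra2b to Leng4 (0.974) and Adrb1 to Olr1606 (0.967), patterns of small amplitude. Each is the highest r of the search and has no test.

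The rest of the noradrenaline pathway was read from 5 lists. Of 97 probes on the array, 93 probes of 65 genes were tested. Under occlusion 30 were higher and 63 lower (67.7% lower, beside 49.5% of all tested probes), and 59 were lower without control 3, beside 50.2%. The test was passed by 0 in either direction, beside 0% of all probes. The median difference was -0.05, and -0.04 without control 3. Only Kcnj3 and Gipc1 had an unadjusted p under 0.05, which is 2 of 93 probes beside 3.11% of all tested probes.

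The 9 tested genes of synthesis, storage and uptake split into 7 higher and 2 lower (3 lower without control 3), beside 49.5% of all tested probes that were lower. Th, the rate-limiting enzyme of catecholamine synthesis, read 1.46, -0.39, -0.47 and -1.07 in occlusion rats 1 to 4 and 0.04, -0.27, -0.84 and 0.03 in control rats 1 to 4, with a difference of 0.14 ± 0.48 (SE) that turned to -0.05 without control 3. Ddc, which makes dopamine from L-DOPA, read 1.23, 0.10, 0.13 and 0.15 against 0.10, -0.02, -1.71 and -0.09, a difference of 0.83 ± 0.42 that was 0.40 without control 3. Occlusion 1 was the highest rat on both genes. Dbh, which converts dopamine to noradrenaline, differed by 0.02 ± 0.09, and Slc6a2, the noradrenaline transporter, by -0.06 ± 0.08, or -0.01 without control 3. Their Cy5 signals were 1.93 and 2.49 times background at the median.

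Of the 4 probes for breakdown enzymes, 2 were higher and 2 lower, beside the same 49.5% of all tested probes. The Maoa probes, for monoamine oxidase A, differed by 0.20 ± 0.14 and, with 3 rats per group, by 0.13 ± 0.13.

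No probe of the signalling lists passed the test, and the counts below stand beside 49.5% of all tested probes that read lower under occlusion, or 50.2% without control 3. Of 21 G protein probes, 15 were lower (14 without control 3), with a median of -0.05; Gng2 differed by 0.21 ± 0.10 and Gng7 by -0.23 ± 0.16 (SE; -0.09 without control 3), both G protein gamma subunits, and Gnb1, a beta subunit, by -0.14 ± 0.11. Of 41 effector probes, 31 were lower (26 without control 3), with a median of -0.09 that became -0.01 without control 3. Kcnj3 and Kcnj6, subunits of the potassium channel that Gi-coupled receptors open, differed by -0.38 ± 0.14 (limma unadjusted p = 0.0275, adjusted p = 0.975) and -0.30 ± 0.16. Without control 3 these were -0.28 and -0.14. Kcnj3 read -0.23, -0.04, -0.07 and 0.19 under occlusion and -0.01, 0.45, 0.63 and 0.29 in controls, with occlusion 4 inside the control range. Itpr1, the calcium release channel downstream of Gq, differed by -0.32 ± 0.19, and by -0.15 without control 3. Of 18 probes for regulators, 13 were lower (14 without control 3), with a median of -0.03 that became -0.10 without that rat. Gipc1, an adaptor that binds receptor tails, read -0.66, -0.39, -0.70 and -0.39 against -0.28, -0.21, -0.38 and -0.24. Every occlusion rat lay below every control, with nearest values of -0.39 and -0.38, beside 2.5% of all tested probes on which the groups were apart. Gipc1 differed by -0.26 ± 0.10 (limma unadjusted p = 0.0256, adjusted p = 0.975). Adrbk1 and Adrbk2, the receptor kinases that switch off occupied adrenergic receptors, differed by -0.13 ± 0.07 and -0.19 ± 0.12.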

How the data were processed

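Per the file headers, the authors extracted the arrays with Agilent Feature Extraction 9.5.1.1, with probe positions on rn3. The deposited files hold linear spot intensity and a log10 ratio of Cy5 over Cy3, which the deposited value table repeats within 1% for all 45018 spots of each array. The deposited flags mark outlier, unevenly backgrounded and detected spots (other). Mean signal and median local background were corrected with normexp (offset 50) and loess within arrays, flagged spots were left out, and spots of a probe averaged. The SDs of Cy5 and of Cy3 used a further Aquantile step between arrays. Probes were named by the array's gene name. Probes detected in Cy5 (the software's call of well above background) on 4 or more of the 8 arrays, with at least 2 values per group, were tested in limma 3.58.1 (R 4.3.3), 4 rats against 4, with Benjamini-Hochberg adjustment. The fit was tested on simulated data. Figures used matplotlib 3.10.9.

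A first run estimated normexp on all spots. It disagreed with the scanner's ratios in occlusion 3. There the fitted background was -567.9 in Cy5 and -325.9 in Cy3, and 1.8 and 25.1 without flagged spots. In that rat 6 Cy5 and 2 Cy3 spots, all flagged, lay far below their local background, and their part alone was not tested. In occlusion 1 the fitted background moved from -15 and -84.7 to 2.9 and 28, and its Adra1d ratio from -1.17 to -1.35. The ratios of occlusion 3 moved further, from -0.65 to -1.47 on Adra1d and from -0.51 to -1.19 on Adra2c. The estimate was therefore made without flagged spots, after the first run's receptor results had been seen. With the change the group difference went from -0.74 to -0.99 for Adra1d and from -0.20 to -0.38 for Adra2c. The first run gave Adra2b a limma unadjusted p of 0.0254, which became 0.121. The text gives both.

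Named are all receptor probes; of each pathway list, the 3 tested probes with the smallest unadjusted p, plus Th, Dbh, Slc6a2 and Maoa; the 3 genes most correlated with each receptor; and the region markers Slc17a6, Prkcd, Neurod2 and Nrgn. A further gene of the rule is not reported here. Members and lists were chosen with earlier results of these data known. Median Cy5 signal over background was 3.65 to 4.67 per array, and the number of arrays limits precision.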

Additional observations from a re-analysis of the deposited data

Results flagged for a closer look

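Of 72 checks for a rat far from the other 3 of its group, 15 found one, 12 of them control 3, where chance gives about 1 in 20. On the receptors, control 3 read -0.94, -1.33 and -1.51 on Adra1b probes 1, 2 and 3, 1.79 on Adra1d and 1.64 on Adra2c (log2 ratios to the pool). In the same rat the marker means were -2.02 for relay neurons, 1.83 for cortex, 0.99 for meninges and fibroblasts and 0.18 for smooth muscle and pericytes. Among pathway genes it read -1.71 on Ddc, 0.23 on Slc6a2 and 0.29 on Gng7. Occlusion 1 stood apart on the relay neuron mean, at -0.33, and on Ddc, at 1.23. Occlusion 3 stood apart on the choroid plexus mean, at 1.63.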

How the results depend on the processing

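The count of probes past the threshold was 0, over all probes, receptors and pathway genes, in every alternative: no background correction, median centring, the scanner's ratios, Cy5 alone, no filter, a filter on all 8 arrays, array weights, slide block, each slide alone, replicate block, the brightest probe of each gene (not counted for the pathway), normexp on all spots (added after seeing the data) and each rat left out. Unadjusted p under 0.05 held for 723 to 1567 probes across them.

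Signs turned for Adrb1 (0.00 without background correction, 0.02 with Cy5 alone, 0.01 within slide 2, 0.02 with normexp on all spots), Adra1b probe 2 (-0.07 with Cy5 alone, -0.19 with array weights), Adra1b probe 1 (-0.03 with array weights), Adra1d (0.08 within slide 2) and Adra2c (0.08 with array weights, 0.05 within slide 2); the cause was not tested. With normexp on all spots Adra2b was -0.19 with an unadjusted p of 0.0254 in limma. Leaving out each rat gave -0.13 to 0.21, -0.29 to 0.22 and -0.17 to 0.62 for Adra1b probes 1, 2 and 3, -1.31 to -0.33 for Adra1d, -0.14 to -0.04 for Adra2a, -0.22 to -0.10 for Adra2b, -0.65 to 0.24 for Adra2c and -0.07 to 0.05 for Adrb1. Omitting control 3 gave the lowest Adra1b values and the highest for Adra1d, Adra2a and Adra2c.

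Same-numbered rats of the groups correlated at -0.16, 0.09, -0.14 and 0.05 over probes. The labels do not say whether the numbers pair the rats, and correlations of ratios to a shared pool cannot settle it. With the replicate block 0 probes passed and Adra2b stayed at -0.16. Adra1a lay near background, and its ratios carry little information.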
